A study of Mus musculus with 6 samples.

Results

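Ret, the ligands and receptors around it and the neurotrophin system were described in bone marrow mesenchymal stem cells (MSCs) with and without Cre-mediated deletion of Pcif1. The 9 genes were Ret, Gdnf, Gfra1, Gfra2, Bdnf, Ntf3, Ngfr, Ntrk2 and Ntrk3, out of 20071 genes in the count table. They were chosen by their difference between the genotypes in these same libraries, so their levels are given as a description with no test. MSCs are stromal cells of the marrow that can form osteoblasts, the cells that lay down bone. They were taken from femurs of 6-week-old mice on a C57BL/6J background and kept for 7 days in osteogenic medium that held dexamethasone (100 nM), ascorbic acid (50 μg/mL) and β-glycerophosphate (5 mM).

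The control libraries came from Pcif1fl/fl littermates and the deleted ones from Prrx1-Cre;Pcif1fl/fl mice, 3 of each. Both groups carried loxP sites around exons 5 to 7 of Pcif1, and Prrx1-Cre, a recombinase active in limb mesenchyme, was present only in the second. The sample labels list 3 libraries per genotype, whereas the design text speaks of duplicates. The sources used here give neither the sex of the mice nor whether each library is a mouse or culture of its own. The spread between libraries may therefore be technical.

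RET is a receptor tyrosine kinase that responds to GDNF-family ligands only together with a GPI-anchored co-receptor. GFRA1 is the co-receptor that prefers GDNF, and GFRA2 the one that prefers neurturin. Neurotrophins work through TRK kinases, with BDNF binding TRKB (Ntrk2) and NT-3 (Ntf3) binding TRKC (Ntrk3), while NGFR (p75) binds all of them. The GDNF-RET axis is best known for guiding ureteric bud branching and the development of enteric and other neurons, and TRK receptors for neuronal survival. PCIF1 adds a methyl group to a 2′-O-methylated adenosine at the first transcribed position of capped mRNA, which is why the annotated first base is given for genes of this set.

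RefSeq promoters on GRCm38.p6 were matched for Bdnf, Gdnf, Gfra1, Ngfr, Ntf3 and Ntrk2, and named without a match are Ret, Gfra2 and Ntrk3. Each line holds 30 bases, 5′ to 3′, on the strand of the gene, with the annotated first transcribed base in capitals at the 16th place. For Bdnf and Gdnf, the outermost annotated starts are shown.
Gfra1 (19:58455384-58455413, minus strand): acctcccctccagccAtccctttccatttt
Bdnf, first start (2:109674685-109674714, plus strand): ttctggtattcttatTaaagcagtagccgg
Bdnf, last start (2:109722906-109722935, plus strand): cccagccctctagccActaccgtttccatc
Gdnf, first start (15:7810033-7810062, plus strand): cttgcagcgtgccctGgcaaacactctgtt
Gdnf, last start (15:7813712-7813741, plus strand): gccgcttcctgccgaCcggcacggcgatcc
Ngfr (11:95587684-95587713, minus strand): cgcccgctagcagccAgagcgagtggagcc
Ntrk2 (13:58806554-58806583, plus strand): ggcactgcggcgcatCtaccagattccctt

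Of the 14 promoters listed for these 6 genes, 8 began with A, or 57.1%, against 34.4% of the 32851 promoters in the same reference. Bdnf alone gave 5 of those 8, from 7 listed starts, and the other genes had 3 of 7. The base differed within the set and within a gene. Gfra1 and Ngfr had A at their single listed start and Ntrk2 had C, while the Bdnf starts shown had T and A and neither Gdnf start had A. For both Gdnf starts, for Ngfr and for the last Bdnf start, the GENCODE M21 annotation has no transcript start at the same base. The first base given for these therefore rests on RefSeq alone. Counts per gene do not tell which start was used in these cells.

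The libraries held 20258209 to 28227696 counts. Levels are CPM, the counts divided by the library size in units of 1000000 after scaling by TMM factors. A group with at most 3 counts in every library is called at the floor, and 3 counts correspond to 0.108 to 0.149 CPM. Pcif1 itself was at 42.8, 41.7 and 39.3 CPM in the controls and at 39.2, 37.8 and 39.7 CPM after deletion, and since these counts cover the whole gene they do not check the loss of exons 5 to 7. Pcif1fl/fl replicate 3 stood apart, with 3.63% of its counts on mitochondrial genes against 1.40 to 1.57% elsewhere. Xist was at 232 to 443 CPM in control and 0.722 to 1.79 CPM in deleted libraries, and the Y-linked Ddx3y at 48.4 to 62.2 against 99.1 to 104 CPM, so the sex makeup of the groups differed, and sex and genotype cannot be told apart. Mesenchymal markers were abundant, with Col1a1 at a mean of 4039 and 6173 CPM, and macrophage markers were too, with Lyz2 at 24321 and 23900 CPM. Of the 10 macrophage markers, 0 passed the edgeR test at an adjusted p under 0.05, 3 had an unadjusted p under 0.05, limma-voom called 0 and DESeq2 called 2 higher. Fitted values were higher after deletion for 6 and lower for 4, with a median log2 fold change of 0.21. Libraries did not overlap for 3 that were higher, Cd14 at 101 and 161, Itgam at 90.9 and 124 and Adgre1 at 508 and 599 CPM, and for 1 that was lower, Csf1r at 1169 and 978 CPM. Among all 13733 genes tested, libraries did not overlap for 15.0% in the higher direction and 15.7% in the lower one. The 10 markers summed to 27214 to 31212 CPM, most of it Lyz2, and the mesenchymal list to 23261 to 34327 CPM, of which Spp1, a gene that macrophages also express, made up 12804 and 17214 CPM on average. In such bulk samples, fewer cells of a type and less RNA per cell cannot be told apart.

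Ret was the most abundant of the 9 genes in Pcif1fl/fl MSCs and much lower after deletion, while its co-receptor Gfra1 was higher and its ligand Gdnf had a similar mean level. In the neurotrophin system the ligand Bdnf was higher, and the TRK receptors Ntrk2 and Ntrk3 were lower. Over the 9 genes, 3 were lower in each deleted library than in any control and 2 were higher in each, with the other 4 overlapping. Among the 13733 genes that passed the expression filter, 15.7% were separated in the lower direction and 15.0% in the higher one. Because the genes were chosen from this difference, nothing is read from their count.

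**Figure D1:**
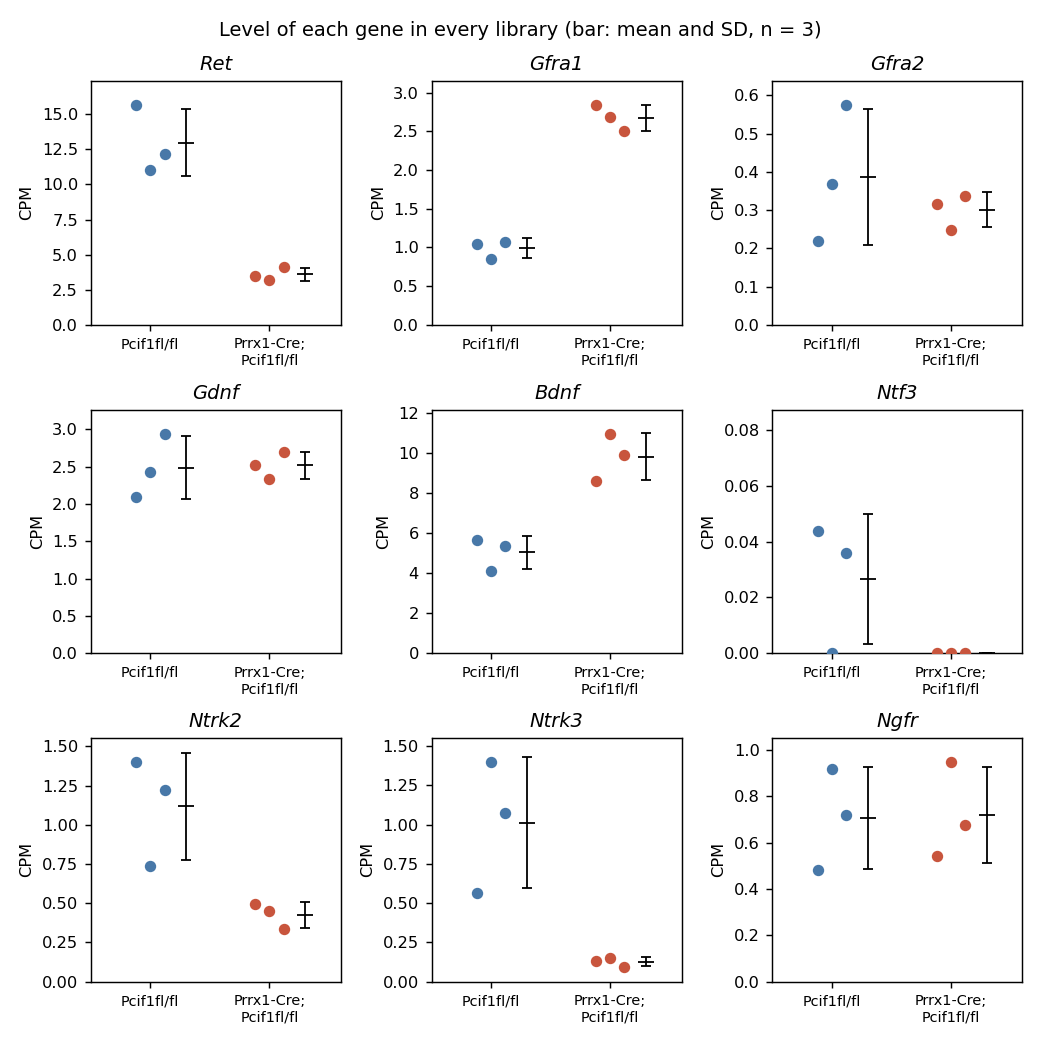
CPM of each of the 9 genes (y axis, linear from 0, a scale of its own in each panel) by genotype (x axis), with 1 point per library and the mean and SD of the 3 libraries beside them. Ret, Ntrk2 and Ntrk3 lie lower and Gfra1 and Bdnf higher in all 3 Prrx1-Cre;Pcif1fl/fl libraries, and Ntf3 never exceeds 1 count.

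Ret (ENSMUSG00000030110; GRCm38 chromosome 6, 118151745 to 118197718, minus strand) encodes the signaling receptor of the GDNF family. It had 358, 301 and 340 counts in the Pcif1fl/fl libraries and 78, 64 and 85 in the Prrx1-Cre;Pcif1fl/fl libraries. In CPM these were 15.6, 11.1 and 12.2 against 3.51, 3.19 and 4.09. All 3 deleted libraries lay far below the lowest control, whose replicate 3 was the middle value of its group. The means were 13.0 ± 2.38 and 3.60 ± 0.458 CPM (SD, n = 3 each), and the log2 fold change in edgeR was -1.85 with a standard error of 0.19. None of its exonic bases overlapped another annotated gene in GENCODE M21.

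The 5 genes most like Ret over the 6 libraries, by Pearson's r of log2 CPM among 12634 genes with a mean of at least 1 CPM, were Cyp27a1 (r = 0.999), Tenm4 (0.998), Agt (0.996), Spry1 (0.996) and Gatb (0.996). Cyp27a1 encodes a mitochondrial sterol hydroxylase, Agt angiotensinogen and Spry1 an inhibitor of receptor tyrosine kinase signaling. All 5 had lower levels after deletion, from a log2 fold change of -0.62 for Cyp27a1 to -2.75 for Agt. The 6 libraries form the 2 genotype groups, so such an r mostly follows the difference between them, and 374 genes, or 2.96%, reached an r of 0.95.

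Gdnf (ENSMUSG00000022144; chromosome 15, 7810846 to 7837575, plus strand), the ligand that acts on RET through GFRA1, had 48, 66 and 82 counts in the Pcif1fl/fl controls and 56, 47 and 56 counts in the deleted Prrx1-Cre;Pcif1fl/fl libraries. The levels were 2.10, 2.43 and 2.94 CPM against 2.52, 2.34 and 2.69 CPM. The deleted libraries fell inside the range of the controls. The log2 fold change was 0.014 with a standard error of 0.21, and the ratio of pooled levels was 1.00 with a 95% exact counting interval of 0.808 to 1.24.

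Gfra1 (ENSMUSG00000025089; chromosome 19, 58235604 to 58455909, minus strand), the GDNF co-receptor, had 24, 23 and 30 counts in the Pcif1fl/fl controls and 63, 54 and 52 counts in the deleted Prrx1-Cre;Pcif1fl/fl libraries. The levels were 1.05, 0.845 and 1.08 CPM against 2.84, 2.69 and 2.50 CPM. The groups did not overlap, and the lowest deleted library was above every control by more than the range within either group. The means were 0.990 ± 0.126 and 2.68 ± 0.167 CPM (SD, n = 3 each), and the log2 fold change was 1.43 with a standard error of 0.23. An antisense gene, Gm16277, covers 7.60% of its exonic bases, and the use of strand in counting is not given in the sources used here.

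Gfra2 (ENSMUSG00000022103; chromosome 14, 70890120 to 70979838, plus strand), the neurturin co-receptor, had 5, 10 and 16 counts in the Pcif1fl/fl controls and 7, 5 and 7 counts in the deleted Prrx1-Cre;Pcif1fl/fl libraries. It did not pass the expression filter. The groups overlapped, and the pooled ratio of deleted to control was 0.758 with an exact counting interval of 0.404 to 1.38, so that a change of this size was not detectable at this depth.

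Set against each other within a library and per kilobase of exon, Ret and Gfra1 moved from unequal to nearly equal levels. The ratio of Ret to Gfra1 was 12.1, 10.6 and 9.18 in the Pcif1fl/fl libraries and 1.00, 0.960 and 1.32 in the Prrx1-Cre;Pcif1fl/fl libraries. The ratio of Ret to Gdnf was 4.05, 2.48 and 2.25 against 0.757, 0.740 and 0.825. In both, all 3 deleted libraries lay below every control. The ratio of Gfra1 to Gdnf went the other way, from a mean of 0.272 ± 0.0556 to 0.716 ± 0.0811 (SD, n = 3 each).

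**Figure D2:**
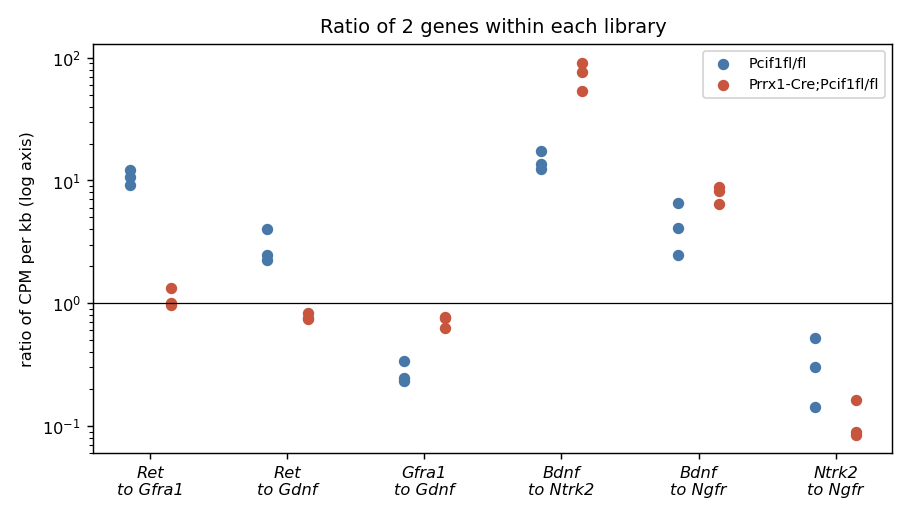
Ratio of the CPM per kilobase of 2 genes within each library (y axis, log scale), for 6 gene pairs (x axis), with 1 point per library in blue for Pcif1fl/fl and red for Prrx1-Cre;Pcif1fl/fl. The ratio of Ret to Gfra1 falls from 9.18 or more to 1.32 or less, and that of Bdnf to Ntrk2 rises from 17.4 or less to 53.9 or more.

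Bdnf (ENSMUSG00000048482; chromosome 2, 109674700 to 109727007, plus strand), the TRKB ligand, had 129, 112 and 149 counts in the Pcif1fl/fl controls and 191, 220 and 206 counts in the deleted Prrx1-Cre;Pcif1fl/fl libraries. The levels were 5.63, 4.12 and 5.34 CPM against 8.60, 11.0 and 9.91 CPM. Every deleted library was above every control. The means were 5.03 ± 0.806 and 9.82 ± 1.18 CPM (SD, n = 3 each), and the log2 fold change was 0.97 with a standard error of 0.17. The antisense gene Gm45346 covers 14.4% of its exonic bases.

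Ntf3 (ENSMUSG00000049107; chromosome 6, 126101412 to 126166910, minus strand), the TRKC ligand, had 1, 0 and 1 counts in Pcif1fl/fl and 0 in all 3 Prrx1-Cre;Pcif1fl/fl libraries. Both groups were at the floor, so no fold change is given.

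Ntrk2 (ENSMUSG00000055254; chromosome 13, 58806569 to 59133970, plus strand), the BDNF receptor, had 32, 20 and 34 counts in the Pcif1fl/fl controls and 11, 9 and 7 counts in the deleted Prrx1-Cre;Pcif1fl/fl libraries. The levels were 1.40, 0.735 and 1.22 CPM against 0.495, 0.448 and 0.337 CPM. The groups did not overlap, but the lowest control, replicate 2, was nearer to the deleted libraries than to the other controls' level. The log2 fold change was -1.37 with a standard error of 0.38, and the pooled level was 2.58 times higher in the controls, with an exact counting interval of 1.66 to 4.13.

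Ntrk3 (ENSMUSG00000059146; chromosome 7, 78175959 to 78738012, minus strand), the NT-3 receptor, had 13, 38 and 30 counts in the Pcif1fl/fl controls and 3, 3 and 2 counts in the deleted Prrx1-Cre;Pcif1fl/fl libraries. The deleted group was at the floor. The controls ranged from 0.568 to 1.40 CPM and none overlapped the deleted libraries. The pooled level was 8.19 times higher in the controls, with an exact counting interval of 3.96 to 19.6. The fitted log2 fold change, -2.96 with a standard error of 0.52, depends on the prior count and was -2.39 with a prior count of 2. For both TRK genes, counts per gene do not separate the full-length kinases from their truncated isoforms.

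Ngfr (ENSMUSG00000000120; chromosome 11, 95568818 to 95587735, minus strand), the p75 receptor shared by all neurotrophins, had 11, 25 and 20 counts in the Pcif1fl/fl controls and 12, 19 and 14 counts in the deleted Prrx1-Cre;Pcif1fl/fl libraries. The levels overlapped, at 0.480, 0.919 and 0.717 CPM against 0.540, 0.946 and 0.674 CPM. The log2 fold change was 0.0094 with a standard error of 0.38, and the exact counting interval of the pooled ratio, 0.656 to 1.50, leaves room for a moderate change in either direction.

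The ratio of Bdnf to Ntrk2 per kilobase was 12.5, 17.4 and 13.6 in Pcif1fl/fl and 53.9, 75.9 and 91.3 in Prrx1-Cre;Pcif1fl/fl libraries. Ligand and receptor lay further apart after deletion, and the groups did not overlap. The ratio of Bdnf to Ngfr overlapped between genotypes, at 2.48 to 6.50 in controls and 6.42 to 8.82 after deletion.

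**Figure D3:**
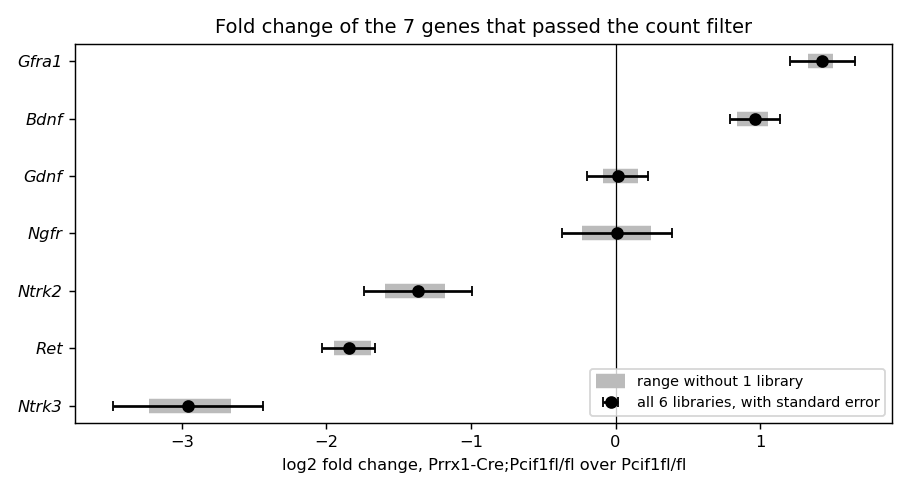
log2 fold change of Prrx1-Cre;Pcif1fl/fl over Pcif1fl/fl (x axis) for the 7 genes that passed the expression filter (y axis). Points and whiskers are the edgeR estimate and its standard error from all 6 libraries, and grey bars span the estimates with each library left out in turn, from -1.95 to -1.69 for Ret. The direction of Ret, Ntrk2, Ntrk3, Bdnf and Gfra1 was fixed by the choice of genes, and the bars of Gdnf and Ngfr cross 0.

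Leaving out each library in turn moved the log2 fold change of Ret between -1.95 and -1.69, that of Gfra1 between 1.33 and 1.50 and that of Bdnf between 0.84 and 1.06. Without Pcif1fl/fl replicate 3, Ret was at -1.88, Gfra1 at 1.50, Bdnf at 1.02, Ntrk2 at -1.29 and Ntrk3 at -2.92. Since the libraries of these 5 genes do not overlap between genotypes, leaving 1 out could move the size but not the direction, which is therefore no sign of stability.

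The order of levels within the set, compared per kilobase of exon, changed with genotype. In Pcif1fl/fl MSCs Ret led at 1.92 ± 0.352 CPM per kb (SD, n = 3), above Bdnf at 0.809 ± 0.130, which overlapped Gdnf at 0.677 ± 0.116. Ngfr, Gfra1, Gfra2, Ntrk2, Ntrk3 and Ntf3 followed, each overlapping the next. After deletion Bdnf led at 1.58 ± 0.190 CPM per kb, above Gdnf at 0.685 ± 0.0483. Ret came next at 0.532 ± 0.0677 and overlapped Gfra1 at 0.489 ± 0.0306, while Ngfr, Gfra2, Ntrk2, Ntrk3 and Ntf3 came below without overlap between neighbours. With the length of the longest transcript in place of all exons, Gdnf also overlapped Ret in the deleted group, and in the controls Bdnf no longer overlapped Gdnf, Gfra1 ranked before Ngfr and Ntrk2 before Gfra2.

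**Figure D4:**
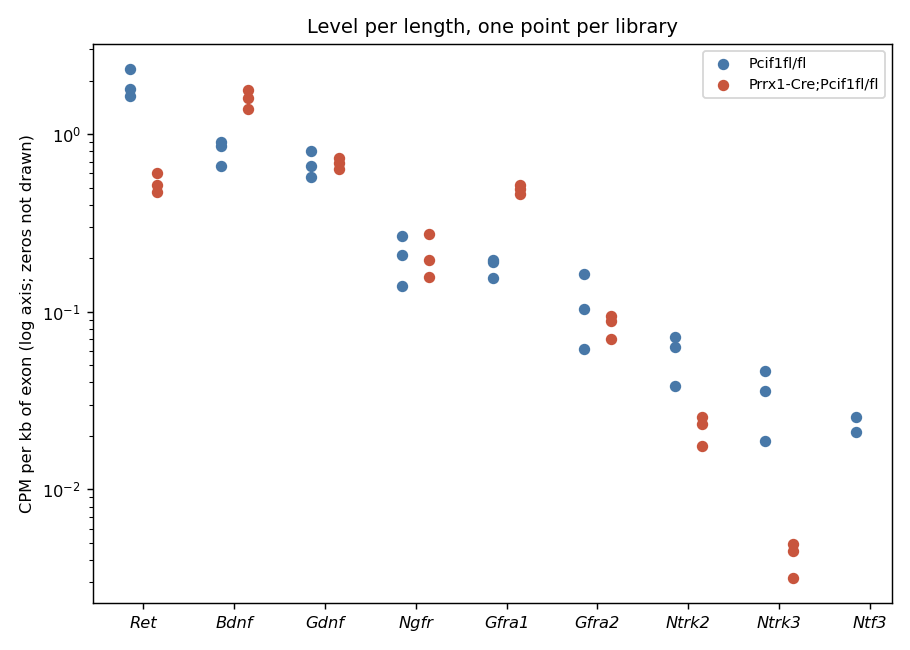
CPM per kilobase of exon (y axis, log scale) of the 9 genes (x axis, in order of the mean in Pcif1fl/fl), with 1 point per library in blue for Pcif1fl/fl and red for Prrx1-Cre;Pcif1fl/fl. Ret leads in the controls and Bdnf in the deleted libraries, and libraries with no count of Ntf3 are not drawn.

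Markers of other cells that use these genes were compared as whole lists. The 12 Schwann cell markers summed to 88.3 to 104 CPM in Pcif1fl/fl and 79.3 to 103 CPM in Prrx1-Cre;Pcif1fl/fl libraries, with Sox10 at 11 counts or fewer in every library. Most of that sum was Mbp, at 75.8 and 71.0 CPM. Of the 7 tested markers, S100b fell from 8.42 ± 0.816 to 3.08 ± 0.307 CPM (edgeR adjusted p = 0.00126) and Egr2 rose from 2.68 ± 0.193 to 10.4 ± 2.50 CPM (edgeR adjusted p = 0.00111). The 12 neuron markers analysed summed to 4.80 to 6.55 against 10.4 to 11.6 CPM, most of it Tubb3, a neuronal tubulin, which rose from 4.31 ± 1.13 to 9.43 ± 0.550 CPM (SD, n = 3; edgeR adjusted p = 0.0113). Stmn2, a neuronal tubulin-binding protein, was at 0.937 ± 0.172 and 0.524 ± 0.132 CPM, with no overlap in the lower direction, and did not pass (edgeR adjusted p = 0.197). Nefm, a neurofilament subunit and the other marker tested, was at 0.188 ± 0.117 and 0.601 ± 0.105 CPM, with no overlap in the higher direction, and did not pass either (edgeR adjusted p = 0.0918). Of these neuron markers 6 were at the floor in every library, Snap25 and Th with 1 count in all. The mesenchymal list moved as well, with 6 of its 13 tested genes lower and 3 higher at an adjusted p under 0.05, where 4.51% and 2.88% of all genes tested were called. Lepr, which marks marrow stromal cells, was at 80.1 ± 18.9 against 12.2 ± 0.737 CPM (SD, n = 3 each). The part of a shift among stromal, macrophage or neural cells in the levels of Ret and its partners was not tested.

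Other genes of the pathways were read from 5 lists that hold 108 genes, of which 105 were analysed and 92 passed the filter. Their edgeR results are tests, but the lists were written with earlier results of these data known. In edgeR's quasi-likelihood fit, with p-values adjusted by Benjamini-Hochberg over all 13733 genes, 10 of the 92 were lower (10.9%, against 4.51% of all genes) and 8 were higher (8.70%, against 2.88%). The median log2 fold change of the 92 was 0.060, and that of all genes tested 0.0017. With a change of at least 2-fold required as well, 4 were lower and 4 higher, beside 2.5% and 1.03% of all genes. The count of higher genes depended on the library: it was 21 without Pcif1fl/fl replicate 3, where 11.1% of all genes were called higher, 4 without Pcif1fl/fl replicate 2, 4 without replicate 1 of the deleted group and 5 without its replicate 2 or its replicate 3, where 1.06 to 1.41% of all genes were.

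Among GDNF-family ligands and co-receptors 7 of 10 genes were tested, with a median log2 fold change of 0.093, and Gas1 fell. Gas1, a GPI-anchored protein related to the GFRA family that can bind RET, was at 89.7 ± 9.12 CPM in Pcif1fl/fl and 43.0 ± 4.47 CPM in Prrx1-Cre;Pcif1fl/fl MSCs (SD, n = 3 each), a log2 fold change of -1.06 (edgeR adjusted p = 0.00124). The antisense gene Gm48488 covers 19.9% of its exonic bases. Artn, the artemin ligand, was at 0.219 ± 0.130 and 0.738 ± 0.219 CPM and did not pass (edgeR adjusted p = 0.0866), except without Pcif1fl/fl replicate 3 (0.0223). Nrtn, the neurturin ligand of GFRA2, had 16, 20 and 3 counts in the controls and 10, 2 and 7 after deletion, or means of 0.514 and 0.295 CPM. Gdf15, a distant ligand that signals through another co-receptor, was at 44.1 and 50.2 CPM, and the co-receptor Gfra4 at 10.4 and 8.45 CPM. Ncam1 and Sdc3, which bind GDNF without RET, were at 58.3 and 65.6 CPM and at 493 and 526 CPM. Of these, Ncam1 passed only without Pcif1fl/fl replicate 3 (edgeR adjusted p = 0.0336).

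Among neurotrophins and their receptors 11 of 16 genes were tested, with a median log2 fold change of -0.040, and Sorl1 and Tnfrsf19 fell. Sorl1, a sorting receptor of the family of sortilin, went from 85.9 ± 6.58 to 46.1 ± 3.15 CPM (SD, n = 3 each; edgeR adjusted p = 0.00126). Tnfrsf19, a TNF-family receptor related to p75, went from 4.20 ± 1.05 to 1.34 ± 0.521 CPM, a log2 fold change of -1.64 (edgeR adjusted p = 0.0192). Its call was lost, at adjusted p between 0.0572 and 0.0743, without replicate 1 or 2 of either genotype.

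The co-receptors and partners of p75 and the TRK kinases showed smaller differences. Sort1, the sortilin that binds pro-neurotrophins with p75, was at 129 and 116 CPM, and its relative Sorcs2 at 20.3 and 20.4 CPM. Lingo1 and Rtn4r, which form a growth-inhibiting complex with p75 in neurons, were at 3.00 and 2.94 CPM and at 0.871 and 0.816 CPM. Kidins220, a scaffold of TRK receptors, was at 216 and 217 CPM. Of the p75 interactors, Maged1 was at 304 and 251 CPM (edgeR adjusted p = 0.158, and 0.0400 without Pcif1fl/fl replicate 3) and Bex3 at 23.5 and 25.2 CPM. Nradd, a p75-like death-domain protein, was at 12.5 ± 5.79 and 15.2 ± 1.25 CPM, with the wide spread of the controls.

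Of the neurotrophin-processing proteases 9 of 12 genes were tested, with 2 called lower and 3 higher and a median log2 fold change of 0.14. Of all genes tested, 4.51% were called lower and 2.88% higher. The proprotein convertases Pcsk5 and Pcsk6, which cut pro-neurotrophins, fell from 16.2 ± 1.20 to 5.84 ± 1.23 CPM (edgeR adjusted p = 0.00161) and from 5.36 ± 0.238 to 2.83 ± 0.122 CPM (0.0104). The call for Pcsk6 was lost without any one of the 3 Prrx1-Cre;Pcif1fl/fl libraries, at adjusted p from 0.0532 to 0.0626. The plasminogen activators Plat and Plau rose, from 16.6 ± 0.403 to 28.1 ± 1.75 CPM (edgeR adjusted p = 0.00359) and from 44.4 ± 8.75 to 89.1 ± 9.40 CPM (0.00547).

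Of 50 adaptors and transducers of RET and TRK receptors 46 were tested, with a median log2 fold change of 0.014, and 2 fell and 1 rose. Over all genes tested 4.51% were called lower and 2.88% higher, so both counts were near that background. Grb10, an adaptor that docks on activated receptor kinases, fell from 251 ± 24.9 to 164 ± 6.46 CPM (edgeR adjusted p = 0.00725, and 0.0585 without Prrx1-Cre;Pcif1fl/fl replicate 3). Pik3r1, the regulatory subunit of PI3-kinase, fell from 365 ± 50.0 to 236 ± 17.0 CPM (edgeR adjusted p = 0.0149, and 0.0937 without Prrx1-Cre;Pcif1fl/fl replicate 1 or 3). Dok2, a docking protein of blood cells, rose from 14.8 ± 4.24 to 31.9 ± 3.18 CPM (edgeR adjusted p = 0.0149). That call was lost without Pcif1fl/fl replicate 2 or Prrx1-Cre;Pcif1fl/fl replicate 1 or 2, at adjusted p from 0.0518 to 0.0808. The other 43 genes, with the core of the RAS-ERK and AKT routes among them, did not pass.

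Of 20 response genes of RET and ERK signaling 19 were tested, and 7 were called, 3 lower and 4 higher. The shares called among all genes were 4.51% lower and 2.88% higher. The fitted fold change was above 0 for 16 of the 19, with a median of 0.32 on the log2 scale against 0.0017 for all genes tested. The libraries were separated higher for 11 of them and lower for 3, where 15.0% and 15.7% of all genes were. Wnt11, a ligand that RET signaling induces in the ureteric bud, fell from 2.54 ± 0.305 to 0.791 ± 0.0572 CPM (edgeR adjusted p = 0.00437). Spry1, a feedback inhibitor of receptor kinases, fell from 74.7 ± 9.25 to 42.8 ± 1.50 CPM (edgeR adjusted p = 0.00366), and antisense Gm42922 covers 24.4% of its exonic bases. The immediate early genes moved the other way, Egr1 from 22.4 ± 10.8 to 96.0 ± 26.3 CPM (edgeR adjusted p = 0.00705) and Fos from 14.1 ± 1.56 to 24.7 ± 4.35 CPM (0.0191). The call for Fos was lost without Pcif1fl/fl replicate 1 or 2 or Prrx1-Cre;Pcif1fl/fl replicate 1 or 3, at adjusted p from 0.0501 to 0.0996. The other 2 that rose were Etv4 and Dusp6. Wnt11 was already known to be lower in these libraries when the list was written.

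**Figure D5:**
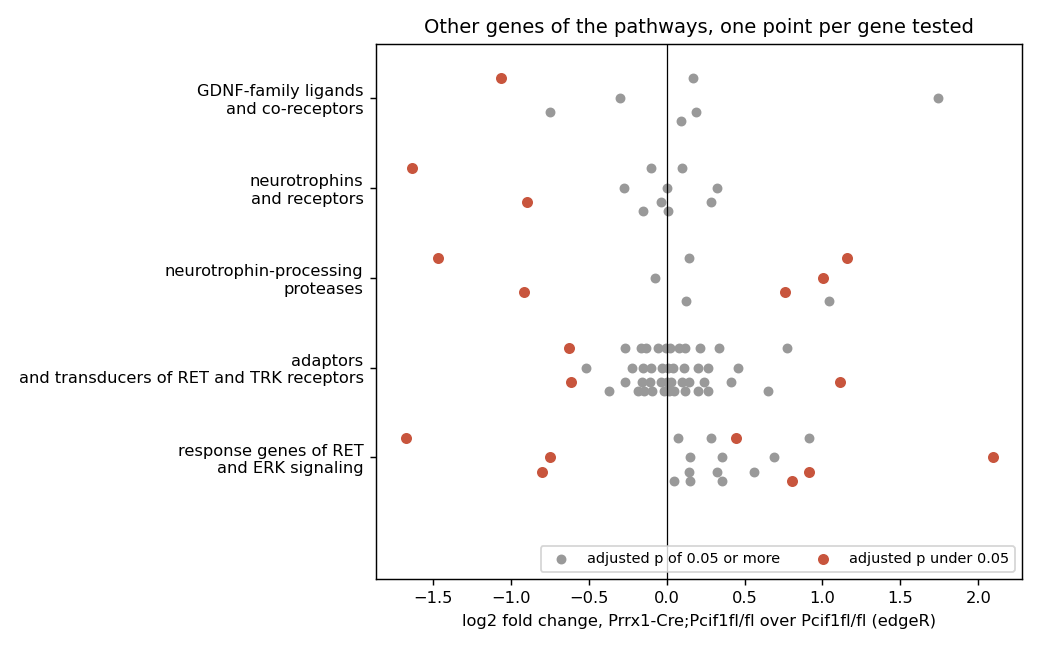
log2 fold change of Prrx1-Cre;Pcif1fl/fl over Pcif1fl/fl (x axis) of the 92 tested genes of the 5 pathway lists (y axis), with 1 point per gene, spread vertically for legibility. Red points had an edgeR adjusted p under 0.05: 10 of them lie left of 0 and 8 right of it.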

How the data were processed

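The authors sequenced poly(A) RNA of the 6 libraries, mapped clean reads to mm10 with HISAT2 (FastQC and DESeq2 are also named in the submitters' processing notes) and deposited the raw counts of reads per gene. How reads were counted, with which annotation and whether by strand, is not given in the sources used here. Of 20163 rows, 92 repeated an Ensembl ID with the same counts, and each of 20071 IDs was used once. Counts were fitted with edgeR 4.0.16 in R 4.3.3 (filterByExpr, TMM, glmQLFit, glmQLFTest, no covariate) over the 13733 genes that passed, with Benjamini-Hochberg adjustment and a threshold of 0.05. Standard errors are the size of the log2 fold change over the root of the F statistic. Pooled ratios carry 95% exact conditional intervals, which, like the floor of 3 counts, cover counting error only. Positions and lengths came from GENCODE M21 on GRCm38, and start sites from RefSeq. The script was tested on simulated counts.

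The genes and lists were chosen with earlier results of these data known. Named were the 9 genes, every tested gene of the lists of ligands and receptors, up to 5 called genes with the smallest p in each other list, and the 5 genes most correlated with Ret. Etv4 and Dusp6, and Lepr and the other markers quoted, were named after their values were seen. Some genes of the lists enter the counts but are not reported here by name. Alternatives were RLE and total-count scaling, DESeq2 1.42.0, limma-voom 3.58.1, other filters, a further requirement of a 2-fold change, a prior count of 2, the replicate number as a block, the longest transcript as length, and leaving out each library.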

Additional observations from a re-analysis of the deposited data

How the results depend on the processing

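The log2 fold change of Ret moved by less than its spread between libraries under all 14 alternatives, between -1.95 and -1.69. Of 85 values of the other genes of the set, 84 did so, the exception being Ntrk3 with a prior count of 2. With 3 libraries per group, leaving 1 out could hardly move a fold change by more than that spread. The values without 1 library are therefore no sign of stability. Gdnf and Ngfr, whose log2 fold changes were 0.014 and 0.0094, changed sign under 4 and 3 alternatives. Genes whose libraries did not overlap were 3 lower and 2 higher with RLE or total-count scaling, and 3 to 4 lower and 2 higher without 1 library, which could not lower these counts. Requiring a 2-fold change as well left 4 pathway genes lower (background 2.5%) and 4 higher (1.03%). DESeq2 called 10 lower and 11 higher, beside 5.26% and 3.76% of all genes. Leaving out 1 library gave 7 to 14 lower and 4 to 21 higher, beside 2.32 to 10.4% and 1.06 to 11.1% of all genes, and moved the median of the neurotrophin list between -0.17 and 0.016, and that of the adaptor list between -0.034 and 0.042. With total-count scaling the adaptor median was -0.0072. The causes were not tested. For the 31 named pathway genes, 360 of 400 values kept direction and side of the threshold, 17 lost the call and 4 gained it, all on leaving out a library, as given with each gene. The other 19 changed sign in 6 genes that were not called with or without the change. Kidins220 was at -0.017 with total-count scaling and -0.00050 without the expression filter, Sorcs2 at -0.013 with total-count scaling, and Lingo1 at 0.043 with limma-voom and 0.046 with the replicate block. Leaving out 1 library gave -0.075 to 0.093 for Kidins220, -0.26 to 0.45 for Lingo1, -0.056 to 0.52 for Nradd, -0.41 to 0.24 for Rtn4r, -0.012 to 0.17 for Sdc3 and -0.047 to 0.088 for Sorcs2. The replicate numbers did not pair the libraries (same-number correlations of deviations 0.064, -0.050 and -0.0016). With the replicate block, Ret was at -1.84 and 10 pathway genes were lower and 7 higher, beside 3.66% and 1.94% of all genes. Depth limits Gfra2, Ntf3, Ngfr and the TRK genes, at 38 counts or fewer per library.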
